A study of Mus musculus with 9 samples.

Results

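Transcripts of 49 genes of the mitotic spindle, kinetochore, chromosome condensation and cytokinesis were followed in mouse LSK cells that had been transduced with DNMT3A. Members were listed by symbol, and the array probes were assigned to them through their RefSeq accessions, with the probe of highest mean signal kept for each gene. A gene was tested if that probe carried the scanner software's flag for a signal well above background on each of the 3 arrays of at least 1 group. This held for 48 of the 49 members, out of 13120 genes tested in all, and the probe of Cenpf did not pass. Detection was complete over all 9 arrays for 46 of the 48, while Espl1 passed on 8 and Ncapg on 5. LSK cells lack lineage markers and carry Sca-1 and Kit, and this small fraction of the marrow contains the stem cells and early progenitors of blood. The 3 groups of 3 arrays each carried LSK cells from transplanted C57BL/6 mice, sorted again for a vector labelled with GFP. They had received empty vector (EV), wild-type DNMT3A (WT) or DNMT3A R882H, a recurrent substitution of leukaemia in this DNA methyltransferase. All groups thus share the transduction, the transplantation and the sort, and the cells of the EV group are not unmanipulated cells. The sources used here do not give the promoter that drove the transgene, the age of the mice or whether each array had a mouse of its own. All p-values rest on the spread among these arrays, part of which may be technical.

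Mitosis begins when chromosomes condense under condensin and topoisomerase II and kinetochores assemble on centromeric chromatin. The spindle checkpoint holds the anaphase-promoting complex in check until every kinetochore is attached to microtubules. Cdc20 then activates that complex, which destroys securin and cyclin B, and the central spindle and the contractile ring divide the cell. Most of these transcripts accumulate in G2 and M phase and are repressed in quiescent cells by the DREAM complex, which binds the cell cycle homology region (CHR) of their promoters. Most long-term stem cells are quiescent, while multipotent and granulocyte-monocyte progenitors divide often. The level of these transcripts in a sorted population depends in part on how many of its cells are near division. In bulk RNA, fewer dividing cells and less of each transcript per dividing cell cannot be told apart.

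Promoters of the members shared a sequence feature that their listing did not use. RefSeq promoters of GRCm38.p6, 250 bases before to 50 after the start, were found for 42 of the 49 members. The CHR letters TTTGAA or TTCGAA stood on either strand in 30 of the 42 (71.4%), against 14.3% of 10496 genes tested on the array and 19.4% of all 27025 genes with a promoter. A CCAAT box, the letters CCAAT on either strand, stood in 32 of the 42 (76.2%), against 38.9% of genes tested on the array. Both occurred together in 27 (64.3%), against 6.31%. CHR letters lay within 50 bases of the start in 26 of the 42 (61.9%), against 3.66% of genes tested on the array. In a list of other mitosis genes, 39 of 84 promoters (46.4%) held CHR letters, and 29 of the 84 (34.5%) held them within 50 bases of the start. Of DNA replication genes, which are expressed earlier in the cycle, 6 of 39 promoters (15.4%) held them. The E2F letters TTCCCGC or TTGGCGC stood in 21 of these 39 (53.8%) and in 9 of the 42 promoters of the members (21.4%), against 11.7% of genes tested on the array. These letters are matches in a window, not binding sites shown in these cells.

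The 250 bases before the start of 5 members show how the letters are arranged, with every CHR, CCAAT or E2F match in capitals and each promoter read 5′ to 3′ on the strand of its gene. They were chosen after the matches were seen. Top2a (chr11:99024190-99024439, minus strand) had 4 CHR and 6 CCAAT matches, Ube2c (chr2:164769679-164769928, plus strand) 1 and 6, and Cdc20 (chr4:118437344-118437593, minus strand) 1 and 2. Cenpn (chr8:116921490-116921739, plus strand) had 1 of each, and Cenpi (chrX:134307834-134308083, plus strand) had no match in this stretch. In Ube2c, 1 pair of CCAAT matches on opposite strands overlaps.
Top2a: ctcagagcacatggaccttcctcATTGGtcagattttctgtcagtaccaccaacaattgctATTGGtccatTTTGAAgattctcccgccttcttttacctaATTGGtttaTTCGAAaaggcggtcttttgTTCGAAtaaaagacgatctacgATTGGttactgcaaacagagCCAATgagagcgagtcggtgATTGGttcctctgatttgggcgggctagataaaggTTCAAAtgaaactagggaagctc
Ube2c: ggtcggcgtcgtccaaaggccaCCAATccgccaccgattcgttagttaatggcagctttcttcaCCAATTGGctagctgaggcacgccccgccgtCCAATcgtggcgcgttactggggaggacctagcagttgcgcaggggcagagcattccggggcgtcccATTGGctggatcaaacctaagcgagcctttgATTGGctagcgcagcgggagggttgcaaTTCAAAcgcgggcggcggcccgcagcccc
Cdc20: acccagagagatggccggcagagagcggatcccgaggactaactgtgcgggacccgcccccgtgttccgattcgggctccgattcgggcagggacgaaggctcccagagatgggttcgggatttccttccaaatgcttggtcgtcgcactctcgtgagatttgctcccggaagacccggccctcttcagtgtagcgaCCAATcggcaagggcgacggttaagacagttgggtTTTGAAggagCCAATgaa
Cenpn: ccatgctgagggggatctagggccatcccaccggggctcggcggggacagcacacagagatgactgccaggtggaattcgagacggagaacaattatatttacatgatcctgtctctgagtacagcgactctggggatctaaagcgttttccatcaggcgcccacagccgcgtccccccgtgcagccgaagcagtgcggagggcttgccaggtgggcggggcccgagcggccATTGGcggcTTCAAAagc
Cenpi: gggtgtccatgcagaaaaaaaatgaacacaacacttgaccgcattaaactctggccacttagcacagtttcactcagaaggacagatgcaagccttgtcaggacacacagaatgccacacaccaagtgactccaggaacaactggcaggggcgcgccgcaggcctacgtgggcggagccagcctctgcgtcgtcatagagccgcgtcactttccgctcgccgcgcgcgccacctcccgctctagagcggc
The 4 stretches with a CHR match also held a CCAAT match, and that of Cenpi held neither. In the bases after the start, which the counts above include, Cenpi had a CCAAT match at base 8.

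Signal was background-subtracted by the scanner software, and levels are given throughout as log2 signal minus the 75th percentile of the array. Per array, 53.4% to 64.8% of 55681 probes were well above background. The sorting markers Kit and Ly6a (Sca-1), with Cd34 and Flt3, were detected on all 9 arrays. Markers of other cells were present too: 13 of 15 granulocyte-monocyte genes were well above background on all 9 arrays, as were 3 of 10 B lineage genes (Cd79b, Pax5 and Vpreb1) and 3 of 7 T lineage genes (Cd3e, Cd4 and Lck). Ms4a1 of the B lineage and Cd3d, Cd8a and Cd2 of the T lineage were not so on any array. The mouse Dnmt3a probe stood 0.36 ± 0.37 (SE) higher with R882H than with EV, with an adjusted p of 0.733. Since the sources used here do not say if this probe reads the transgene, it does not check the labels. In the value table the authors deposited beside the scanner output, 7 of 9 columns held the values of an array whose scanner output carries another sample's name, and for 4 of these the other sample was of another group. In the sample order of the series, its columns held EV replicates 1 to 3, then those of R882H, then those of WT. By scanner output, the columns named EV held EV replicates 1 and 2 and WT replicate 1. Those named WT held WT replicate 2, EV replicate 3 and R882H replicate 1. Those named R882H held R882H replicates 2 and 3 and WT replicate 3. Which of the assignments is right was not tested, and all values here follow the scanner output unless the table is named. The 3 EV arrays lay on a slide with WT replicate 1, R882H replicates 1 and 2 on a slide with WT replicates 2 and 3, and R882H replicate 3 alone on another. No R882H array shared a slide with an EV array.

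Seen array by array, the members differed by small amounts and not by group alone. The median over the 46 members detected on all arrays, each centred on its own mean, was 0.16, -0.09 and 0.04 on EV replicates 1, 2 and 3. It was 0.02, -0.04 and 0.17 on the WT arrays and -0.16, -0.07 and -0.04 on the R882H arrays. All R882H arrays lay below 0, but EV replicate 2 lay below R882H replicates 2 and 3, so the groups overlapped. WT replicate 3 had the highest level of all 9 arrays for 15 of the 46 members and EV replicate 1 for 13. R882H replicates 1 and 2 had the highest level for no member and the lowest for 9 and 10, while WT replicate 2 had the lowest for 11 and the highest for 6.

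**Figure D1:**
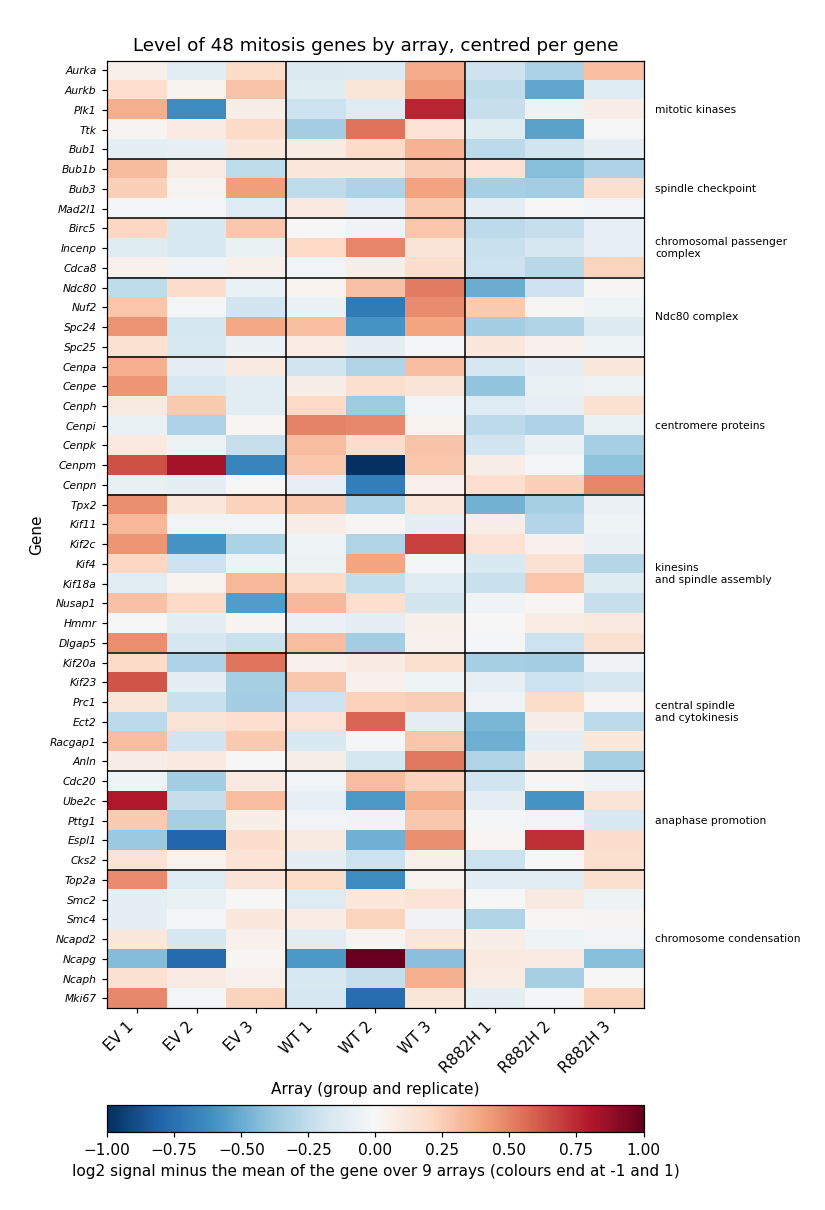
Levels of the 48 tested members (rows, by role) on the 9 arrays (columns), as log2 signal minus the mean of the gene over the arrays, with colours ending at -1 and 1. EV replicate 1 and WT replicate 3 are mostly red, R882H replicate 1 mostly blue, and WT replicate 2 is mixed, with deep blue for Cenpm and deep red for Ncapg.

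With R882H the means of 36 of 48 members were lower than with EV (75%, against 53.2% of all genes tested; 12 were higher, against 46.8%), and the median log2 difference was -0.12, where that of all genes was -0.03. Over the 46 members detected on all 9 arrays, which leaves out Espl1 and Ncapg, 36 were lower and 10 higher. No member passed at an adjusted p under 0.05 with limma (0 of 13120 genes did), and the smallest adjusted p of a member was 0.527. At an unadjusted p under 0.05, 2 members were lower, Tpx2 and Aurkb, which is 4.17% of the members against 3.77% of all genes, and no member was higher (5.37% of all genes were, and 9.15% passed in either direction). R882H arrays lay wholly below EV arrays for 4 members (Aurkb, Ttk, Bub1 and Tpx2), 8.33% against 9.38% of all genes, and wholly above for Cenpn (9.12% of all genes were so). Both shares of lower members lay near those of all genes. The difference also ran with signal over all genes: the median of all genes went from 0.20 in the dimmest of 5 equal classes of mean signal to -0.13 in the brightest. Of the members, 17 were in the brightest class, with a median of -0.12, and 14 in the next, with -0.17 where all its genes had -0.10. In these classes 69.6% and 65.4% of all genes were lower. The part of signal in the members' differences was not tested. With the slide as a block, which compares R882H with EV only by way of the WT arrays and leaves R882H replicate 3 without weight, the median was -0.20 with 32 of 48 lower. The median was -0.06 without EV replicate 1, -0.08 without R882H replicate 1 and -0.19 without R882H replicate 3. The count of 2 became 0 without EV replicate 1, R882H replicate 1 or R882H replicate 2, and 4 without EV replicate 2 or WT replicate 2. With the columns of the deposited value table as named, the median was -0.0053 and 24 of 48 members were lower. Scaled by the array median, 43 of 48 were lower with all genes at a median of -0.18, and after quantile normalization or cyclic loess 30 or 31 were.

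Against WT, which asks what the substitution adds to the enzyme, the means of 36 of 48 members were again lower with R882H (75%, against 52.4% of all genes) and those of 12 higher (47.6%). The median difference was -0.15, where that of all genes was -0.02. Here too the difference ran with signal, the median of all genes going from 0.13 in the dimmest class to -0.08 in the brightest. In the brightest class, with 17 members, 62.0% of all genes were lower, and in the next, with 14, 63.2% were. The part of signal was not tested here either. Again no member passed with limma (0 of 13120 genes did), the smallest adjusted p being 0.550. At an unadjusted p under 0.05, 6 members were lower (12.5%, against 4.51% of all genes) and 1 was higher (3.59% of all genes were, and 8.10% passed in either direction). The 6 were Cenpi, Cenpk, Incenp, Bub1, Ndc80 and Aurkb, and the 1 was Cenpn. R882H arrays lay wholly below WT arrays for 10 members (Birc5, Cenpe, Kif20a and Kif23 beside those 6), 20.8% against 8.89% of all genes and 14.4% of the brightest class, and wholly above for 1 (6.68% of all genes were). The R882H arrays are those of the comparison with EV, so the counts are not independent. On the slide that held R882H replicates 1 and 2 with WT replicates 2 and 3, the median was -0.21 and 36 of 48 members were lower. The median was -0.06 without WT replicate 3, with 27 of 48 lower, and -0.23 without R882H replicate 3. The count of 7 members became 4 without R882H replicate 1, 3 without R882H replicate 2 and 2 without number 3 in every group. With the columns of the deposited value table as named, the direction turned, to a median of 0.08 with 14 of 48 members lower and 0 at an unadjusted p under 0.05. By scanner output, the columns named R882H and those named WT each held arrays of more than 1 group, so that setting compares mixed sets. Scaled by the array median, 43 of 48 were lower with all genes at -0.11, and after quantile normalization or cyclic loess 33 or 34 were.

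Between WT and EV, which asks what the wild-type enzyme does, the members were divided, with 26 higher (51.0% of all genes were), 22 lower and a median of 0.02. With the array median in place of the 75th percentile that median was -0.05, with 28 of 48 lower. No member passed with limma (0 of 13120 genes did), the smallest adjusted p being 0.786. Incenp and Cenpi were higher at an unadjusted p under 0.05, 4.17% of the members against 3.40% of all genes, and none was lower (2.54% of all genes were, and 5.94% passed in either direction). WT arrays lay wholly above EV arrays for Incenp, Cenpi and Cenpk (3 of 48, where 5.53% of all genes were so), and wholly below for none (4.50%). The count of 2 became 0 without EV replicate 2 or WT replicate 2, 1 without EV replicate 1 or WT replicate 1 and 4 without WT replicate 3. With the replicate number as a block it was 3. The median was 0.06 without EV replicate 1, 0.08 without WT replicate 1, 0.04 without EV replicate 3 or WT replicate 2, -0.06 without EV replicate 2 and -0.04 without WT replicate 3. Against EV, WT replicate 1 on the shared slide gave a median of -0.01, with 26 of 48 members lower. With the columns of the deposited value table as named, the median was -0.07 and 29 of 48 members were lower.

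**Figure D2:**
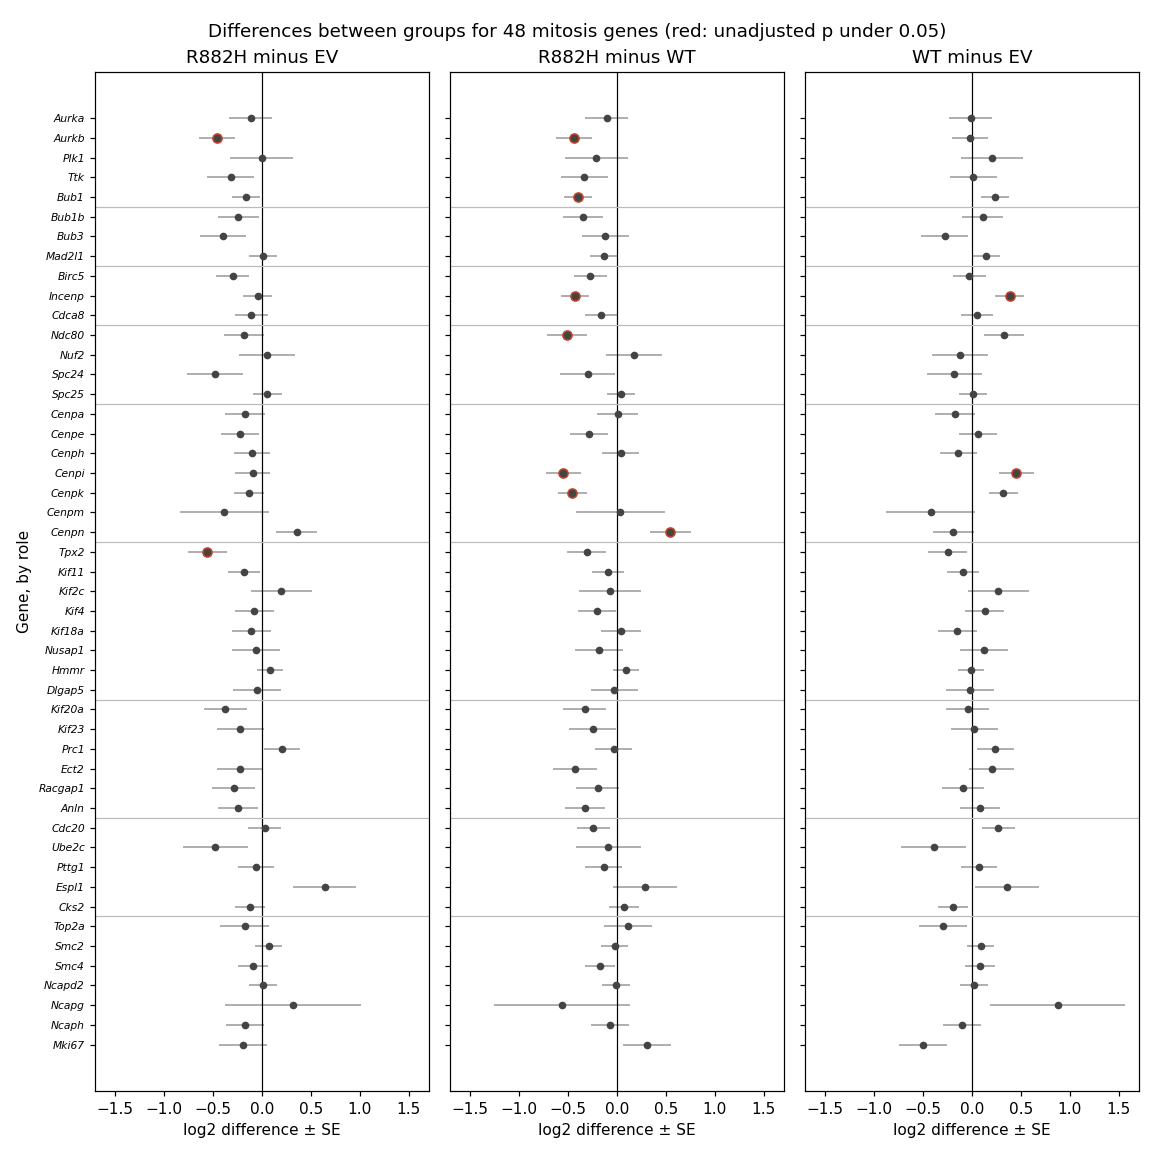
Log2 difference of each of 48 members in the 3 comparisons, with its SE (n = 3 arrays a group), ordered by role; red marks an unadjusted p under 0.05. R882H minus EV has 36 of 48 points left of 0, R882H minus WT also 36, and WT minus EV 22.

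Judged by the spread among arrays of a group, these data bound the differences rather than exclude them. The median SE of a member was 0.20 log2 units, which gives a 95% interval of 0.46 to each side. That interval lay within a 2-fold change in either direction for 42 of 48 members between R882H and EV, 44 between R882H and WT and 43 between WT and EV. Differences of under 0.25 log2 units were measured for 35, 29 and 35 members in these comparisons. The intervals do not cover slide, choice of probe or assignment of arrays. Between R882H and EV, the interval of Aurkb was -0.88 to -0.04, and the slide block gave -0.94. That of Tpx2 was -1.01 to -0.10, and its other probe gave -1.40. By mean, R882H was the lowest of the 3 groups for 29 of 48 members (60.4%, against 38.8% of all genes) and the highest for 5 (10.4%, against 33.2%). WT was the highest for 24 (50%, against 32.3%). The shares of all genes here were not matched for signal, with which the differences of R882H from EV and WT ran.

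Mitotic kinases were lower with R882H by mean in both comparisons for all 5 members, with no call passed. Aurkb encodes the kinase of the chromosomal passenger complex, which corrects faulty kinetochore attachments. Its level was -0.63, -0.77 and -0.51 on the EV arrays, -0.92, -0.68 and -0.38 on the WT arrays and -1.05, -1.32 and -0.93 on the R882H arrays. Every R882H array was below every other array, with WT replicate 1 close to R882H replicate 3. The difference from EV was -0.46 ± 0.19 (SE; adjusted p = 0.530) and from WT -0.44 ± 0.19 (adjusted p = 0.606). The former was -0.94 with the slide as a block and -0.26 with normexp background correction. Bub1, a checkpoint kinase that marks centromeric histone H2A, read 1.10, 1.11 and 1.30 with EV, 1.28, 1.38 and 1.54 with WT and 0.93, 0.99 and 1.10 with R882H. Its R882H arrays lay below all others, R882H replicate 3 only just below EV replicate 1, with differences of -0.16 ± 0.14 from EV and -0.39 ± 0.14 from WT (adjusted p = 0.692 and 0.553). The latter turned to 0.0059 with the columns of the deposited value table as named. Aurka, which matures the spindle poles, read 3.41, 3.26 and 3.54 with EV, 3.21, 3.23 and 3.73 with WT and 3.15, 3.04 and 3.66 with R882H. Replicate 3 was the highest array of each group, and R882H replicate 3 exceeded all EV arrays. The differences of Aurka were -0.12 ± 0.22 from EV, -0.10 ± 0.22 from WT and -0.01 ± 0.22 for WT from EV (adjusted p = 0.854, 0.907 and 0.993). With the slide as a block they were -0.57, -0.38 and -0.19. Ttk, the kinase Mps1 that starts checkpoint signalling, differed with R882H by -0.32 from EV, with no overlap, and by -0.33 from WT. Plk1, which drives mitotic entry and spindle assembly, ranged from 0.91 on EV replicate 2 to 2.30 on WT replicate 3, and its means with R882H and EV differed by -0.0039 ± 0.32.

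The 3 checkpoint genes, whose products act at unattached kinetochores, were lower by mean with R882H than with WT. Bub3, the partner of both Bub1 and BubR1, read 2.92, 2.71 and 3.10 with EV, 2.43, 2.38 and 3.09 with WT and 2.35, 2.34 and 2.85 with R882H. WT and R882H replicates 1 and 2 lay together at 2.34 to 2.43, below all EV arrays, while replicate 3 of both groups reached the EV range. Its differences from EV were -0.40 ± 0.24 with R882H and -0.28 ± 0.24 with WT (adjusted p = 0.590 and 0.875), and R882H differed from WT by -0.12 ± 0.24 (adjusted p = 0.904). With the slide as a block, these 3 differences were -0.87, -0.48 and -0.39, and in the deposited table as named R882H minus EV was 0.068. WT minus EV ran from -0.51 without WT replicate 3 to -0.15 without WT replicate 2. Bub1b, which encodes BubR1, differed between R882H and WT by -0.35 ± 0.21, with R882H replicate 1 inside the WT range. Mad2l1, which encodes the inhibitor Mad2 that is passed onto Cdc20, differed between R882H and EV by 0.01 on the probe used and by -0.32 on each of its 2 other detected probes.

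The chromosomal passenger complex holds Aurora B on the inner centromere. Incenp, its scaffold, read 3.31, 3.28 and 3.37 with EV, 3.64, 3.92 and 3.56 with WT and 3.21, 3.27 and 3.35 with R882H. All WT arrays stood above the 6 others, which lay between 3.21 and 3.37. WT exceeded EV by 0.39 ± 0.15 (adjusted p = 0.786), R882H minus WT was -0.43 ± 0.15 (adjusted p = 0.551), and its second probe gave 0.38 and -0.47. With the columns of the deposited table as named, these differences were 0.089 and -0.11. Birc5, which encodes survivin, read 5.48, 5.12 and 5.54 with EV, 5.28, 5.24 and 5.55 with WT and 5.01, 5.04 and 5.19 with R882H. R882H lay below every WT array and overlapped with EV through EV replicate 2. The difference from EV was -0.30 ± 0.17 and from WT -0.27 ± 0.17 (adjusted p = 0.582 and 0.688), while WT and EV differed by -0.03 ± 0.17 (adjusted p = 0.980). Its other 2 probes gave -0.41 and -0.40 from EV, the slide block gave -0.47, and the difference from WT was -0.18 without WT replicate 3. In the deposited table as named, R882H minus EV was -0.035 and R882H minus WT -0.0074. Cdca8, which encodes borealin, differed from EV by -0.11 on the probe used and -0.53 on the other.

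Of the 4 genes of the Ndc80 complex, the microtubule-binding part of the kinetochore, 2 were lower and 2 higher by mean with R882H in both comparisons. Ndc80 read 0.61, 1.05 and 0.81 with EV, 0.91, 1.16 and 1.39 with WT and 0.37, 0.67 and 0.88 with R882H. R882H lay below all WT arrays, with R882H replicate 3 close to WT replicate 1, and overlapped with EV. R882H minus WT was -0.51 ± 0.20 (adjusted p = 0.585) and R882H minus EV was -0.18 ± 0.20. Spc25 read 2.81, 2.50 and 2.60 with EV, 2.73, 2.57 and 2.64 with WT and 2.76, 2.70 and 2.61 with R882H, a range of 0.31 over all 9 arrays. R882H differed by 0.06 ± 0.14 from EV and 0.04 ± 0.14 from WT, and WT from EV by 0.01 ± 0.14 (adjusted p = 0.898, 0.946 and 0.991). Nuf2, the partner of Ndc80 in its head, was lowest on WT replicate 2 at -0.62 and highest on WT replicate 3 at 0.56. Spc24 differed from EV by -0.48 ± 0.28, with WT replicate 2 the lowest array at 1.14.

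Centromere genes included members set apart with WT (Cenpi, Cenpk) and with R882H (Cenpn). Cenpi, a subunit of the constitutive centromere network that takes part in loading new CENP-A, read 0.40, 0.16 and 0.49 with EV, 0.97, 0.95 and 0.50 with WT and 0.21, 0.16 and 0.40 with R882H. WT replicates 1 and 2 stood clear of all other arrays, while WT replicate 3 lay only just above EV replicate 3. R882H minus WT was -0.55 ± 0.18 (adjusted p = 0.550) and WT higher than EV by 0.45 ± 0.18 (adjusted p = 0.801), which in the deposited table as named were -0.19 and 0.038. Cenpk, of the same network, read 2.75, 2.60 and 2.42 with EV, 2.96, 2.83 and 2.94 with WT and 2.46, 2.59 and 2.32 with R882H. Every WT array exceeded every other array. R882H minus WT was -0.45 ± 0.15, R882H minus EV -0.13 ± 0.15 and WT minus EV 0.32 ± 0.15 (adjusted p = 0.551, 0.756 and 0.851). Both differences of WT turned in the deposited table as named, R882H minus WT to 0.045 and WT minus EV to -0.20. Cenpn, which reads CENP-A nucleosomes, was the exception in direction, at -0.06, -0.09 and 0.01 with EV, -0.07, -0.68 and 0.05 with WT and 0.18, 0.25 and 0.50 with R882H. All R882H arrays stood above the 6 others, by 0.36 ± 0.21 against EV and 0.54 ± 0.21 against WT (adjusted p = 0.586 and 0.568), with WT replicate 2 the lowest array.

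For the other centromere genes the groups overlapped between R882H and EV. Cenpa, the histone variant that defines the centromere, differed by -0.17 ± 0.20 from EV and 0.01 ± 0.20 from WT. Cenpe, a kinesin that carries chromosomes to the spindle equator, read 2.03, 1.43 and 1.48 with EV, 1.65, 1.75 and 1.72 with WT and 1.20, 1.53 and 1.54 with R882H. R882H replicate 1 was the lowest of all arrays, and the others of its group lay below WT and inside the EV range. Cenph differed by -0.10 from EV and 0.04 from WT. Cenpm had the widest spread of this role, from -2.06 on WT replicate 2 to -0.21 on EV replicate 2, and its difference of -0.39 ± 0.46 from EV was smaller than its SE.

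**Figure D3:**
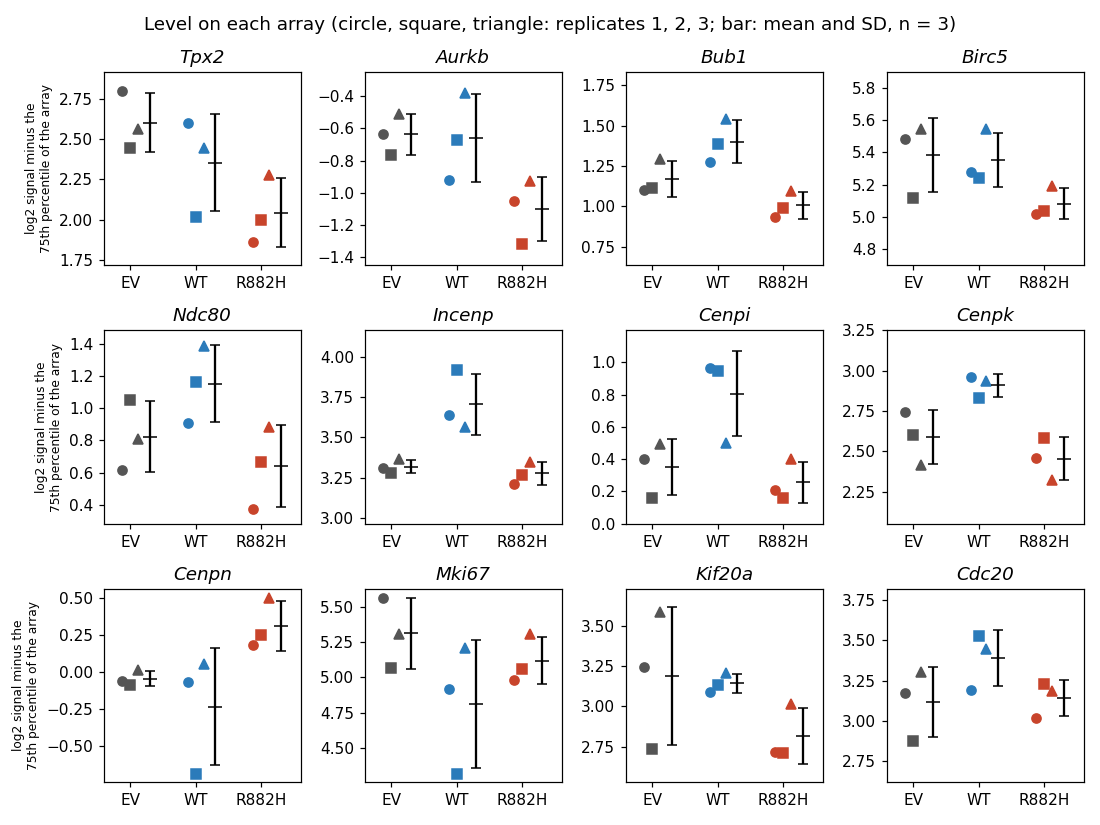
Level of 12 members on each array, as log2 signal minus the 75th percentile of the array, with mean and SD (n = 3) beside the points; vertical ranges differ between genes. R882H points lie below all others for Aurkb and above all others for Cenpn, and WT points lie above all others for Incenp, Cenpi and Cenpk.

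Among kinesins and spindle assembly factors, Tpx2 had the smallest unadjusted p of any member between R882H and EV. It activates Aurora A and nucleates microtubules around chromosomes. Tpx2 read 2.80, 2.44 and 2.56 with EV, 2.60, 2.02 and 2.44 with WT and 1.86, 2.00 and 2.27 with R882H. All R882H arrays lay below all EV arrays, while WT replicate 2 lay within the R882H range. The difference from EV was -0.56 ± 0.20, or 0.680 times the EV level (adjusted p = 0.527; 95% interval -1.01 to -0.10). With the slide as a block it was -0.30, and in the deposited table as named -0.38. Its other probe, well above background on 8 arrays, gave -1.40. Hmmr, a spindle pole protein, read 3.52, 3.43 and 3.56 with EV, 3.46, 3.44 and 3.57 with WT and 3.53, 3.60 and 3.62 with R882H, the narrowest range of the members at 0.19. The 3 groups overlapped, with R882H at 0.08 ± 0.13 from EV and 0.09 ± 0.13 from WT, and WT from EV at -0.01 ± 0.13 (adjusted p = 0.824, 0.856 and 0.993). Kif11, the motor Eg5 that separates the spindle poles, differed from EV by -0.18 ± 0.17, Kif4 by -0.08 ± 0.20 and Kif18a, which limits chromosome oscillation, by -0.11 ± 0.20. Kif2c, the microtubule depolymerase MCAK, ranged from -1.79 on EV replicate 2 to -0.52 on WT replicate 3. Nusap1 and Dlgap5, which bundle and stabilise spindle microtubules, differed from EV by -0.06 and -0.05.

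For the 6 genes of the central spindle and cytokinesis, R882H means were lower than WT means in every case and lower than EV means in 5, with a median of -0.29 and -0.24. Kif20a, the kinesin MKLP2 that brings Aurora B to the central spindle, read 3.24, 2.74 and 3.59 with EV, 3.09, 3.13 and 3.21 with WT and 2.72, 2.71 and 3.01 with R882H. R882H lay below all WT arrays but above EV replicate 2 on 1 array, and differed from EV by -0.37 ± 0.22 and from WT by -0.33 ± 0.22 (adjusted p = 0.585 and 0.708). The former was -0.60 without EV replicate 2 and -0.18 without EV replicate 3. WT and EV differed by -0.04 ± 0.22 (adjusted p = 0.974). Kif23 and Racgap1 together form centralspindlin, the bundler of the central spindle. Kif23 read 1.39, 0.66 and 0.43 with EV, 1.03, 0.80 and 0.72 with WT and 0.67, 0.54 and 0.59 with R882H, with EV replicate 1 and WT replicate 1 the highest and R882H below all WT arrays. Racgap1 differed by -0.29 from EV and -0.20 from WT. Ect2, the RhoA exchange factor that centralspindlin recruits, differed by -0.23 from EV and -0.43 from WT, and Anln, which encodes the contractile ring scaffold anillin, by -0.25 from EV and -0.33 from WT. Prc1, which crosslinks antiparallel microtubules, was the member with a higher mean than EV, at 0.20 ± 0.19.

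Of the 5 genes of anaphase promotion, 3 were lower by mean with R882H than with EV and 3 lower than with WT. Cdc20 read 3.17, 2.88 and 3.30 with EV, 3.19, 3.52 and 3.45 with WT and 3.02, 3.23 and 3.19 with R882H, with R882H inside the EV range. Cks2, which helps cyclin-dependent kinase complexes dock onto substrates, read 3.79, 3.68 and 3.79 with EV, 3.56, 3.44 and 3.70 with WT and 3.44, 3.65 and 3.81 with R882H. All groups of Cks2 overlapped, with R882H at -0.12 ± 0.15 from EV and 0.07 ± 0.15 from WT, and WT from EV at -0.19 ± 0.15 (adjusted p = 0.786, 0.913 and 0.875). WT minus EV was -0.13 without WT replicate 2. Ube2c, the ubiquitin-conjugating enzyme of the anaphase-promoting complex, read 4.14, 3.10 and 3.65 with EV, 3.26, 2.77 and 3.70 with WT and 3.24, 2.75 and 3.47 with R882H. EV replicate 1 set its high end, and R882H differed from EV by -0.48 ± 0.33. Pttg1, which encodes securin, differed by -0.06 from EV and -0.14 from WT. Espl1, which encodes separase, the protease that cleaves cohesin, read -3.22, -3.64 and -2.67 with EV, -2.75, -3.33 and -2.38 with WT and -2.83, -2.11 and -2.67 with R882H. Espl1 was well above background on 2 EV, 3 WT and 3 R882H arrays, so it was tested only through the groups in which its mean was higher. R882H replicate 2 stood highest and EV replicate 2 lowest, the groups overlapped, and the difference from EV was 0.64 ± 0.33 (adjusted p = 0.564). That difference was 0.13 with normexp background correction, 0.41 without EV replicate 2 and 0.43 without R882H replicate 2.

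Chromosome condensation genes had a median difference of -0.09 between R882H and EV, with 4 of 7 lower. Condensin subunit genes Smc2, Smc4, Ncapd2 and Ncaph differed by 0.07, -0.09, 0.01 and -0.18, each with an SE of 0.14 to 0.20. Ncapg, a further subunit, was well above background on 5 arrays, 1 of EV, 1 of WT and 3 of R882H, so it was tested through R882H alone. Ncapg read -3.21, -3.55 and -2.77 with EV, -3.36, -0.36 and -3.20 with WT and -2.69, -2.70 and -3.20 with R882H. WT replicate 2 alone stood over 2 log2 units above the rest, and WT differed from EV by 0.87 ± 0.69. Mki67, which encodes the proliferation antigen Ki-67 of the chromosome surface, read 5.56, 5.06 and 5.30 with EV, 4.92, 4.32 and 5.20 with WT and 4.98, 5.06 and 5.30 with R882H. WT lay lowest by mean, through WT replicates 1 and 2, and WT replicate 3 lay within the other groups. Its differences were -0.50 ± 0.24 for WT from EV, -0.19 ± 0.24 for R882H from EV and 0.30 ± 0.24 for R882H from WT (adjusted p = 0.869, 0.781 and 0.752). Without WT replicate 2, WT minus EV was -0.25 and R882H minus WT 0.057, and without WT replicate 3 the latter was 0.50. R882H minus EV was -0.067 without EV replicate 1, -0.32 without EV replicate 2 and -0.13 without R882H replicate 1. Top2a, which untangles sister DNA, likewise had its lowest array in WT replicate 2, at 0.28 against 0.77 to 1.37 on the other 8.

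Other mitosis genes were taken from a separate list. Of 101 listed, 99 were tested, and 74 were lower with R882H than with EV, 75 lower than with WT and 48 lower with WT than with EV, with medians of -0.14, -0.15 and 0.00. None passed with limma, and at an unadjusted p under 0.05 there were 5 lower and 0 higher against EV (3.77% and 5.37% of all genes). Against WT there were 8 lower and 1 higher (4.51% and 3.59%). Between WT and EV there was 1 in each direction (2.54% of all genes were lower and 3.40% higher). R882H arrays lay wholly below EV arrays for 16 of these 99 genes (16.2%, against 9.38% of all genes and 8.33% of the members), and wholly below WT arrays for 19 (19.2%, against 8.89%). Those of smallest p against EV were Cdc23 at -0.49 ± 0.16 (SE), Trip13 at -0.43 ± 0.16 and Cdc16 at -0.39 ± 0.15 (adjusted p = 0.520, 0.527 and 0.527). Cdc16 and Cdc23 encode subunits of the anaphase-promoting complex, and Trip13 the ATPase that disassembles the checkpoint complex. Against WT they were Cenpt, a centromere subunit that binds Ndc80, at 0.91 ± 0.25, Mastl, the Greatwall kinase, at -1.10 ± 0.30, and Gtse1 at -0.77 ± 0.23 (adjusted p = 0.539, 0.549 and 0.550). Gtse1 was higher with WT than with EV by 0.79 ± 0.23 (adjusted p = 0.758), followed by Cenps at -0.69 ± 0.29 and Mis12, a kinetochore subunit, at 0.44 ± 0.20 (adjusted p = 0.833 and 0.851). DNA replication genes had 42 of 46 members lower with R882H than with EV (91.3%, against 53.2% of all genes), with a median of -0.20. For 14 of 46, R882H lay wholly below EV (30.4%, against 9.38% of all genes). Against WT, 39 of 46 were lower (84.8%, against 52.4%), and 7 lay wholly below (15.2%, against 8.89%). Neither list was divided by class of signal. In the brightest class of all genes, 69.6% were lower with R882H than with EV and 18.0% lay wholly below. Against WT these shares were 62.0% and 14.4%.

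Marker lists of other cell types also differed between arrays. The centred median of the 13 granulocyte-monocyte genes detected on all arrays was 0.31, -0.35 and 0.77 on the EV arrays, -0.11, -0.03 and 0.78 on the WT arrays and -0.54, -0.84 and 0.05 on the R882H arrays. Stem cell genes ran the other way, at -0.23, 0.27 and -0.92 with EV, -0.06, -0.04 and -0.65 with WT and 0.58, 0.73 and 0.05 with R882H. WT replicate 3 and R882H replicate 3, the highest arrays of their groups for granulocyte-monocyte genes, were also the highest of their groups for the mitosis genes. With EV the highest array was replicate 3 for granulocyte-monocyte genes and replicate 1 for the mitosis genes. EV replicate 1 was also the highest of all 9 for the 4 erythroid genes detected on every array. Their centred median was 1.16, -0.81 and -0.62 on the EV arrays, -0.32, -0.61 and -0.04 on the WT arrays and 0.06, 0.85 and 0.52 on the R882H arrays. Summed over 14 of 15 granulocyte-monocyte genes with a probe, the log2 level ran from 8.80 to 9.80 with EV, 8.86 to 9.55 with WT and 8.55 to 9.02 with R882H. For the 15 stem cell genes these ranges were 4.27 to 5.39, 4.44 to 5.40 and 5.37 to 5.81. The B lineage genes summed to 0.96 to 1.56 with EV, 0.86 to 2.64 with WT and 2.17 to 3.66 with R882H. The part of these lists in the differences of the mitosis genes was not tested.

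**Figure D4:**
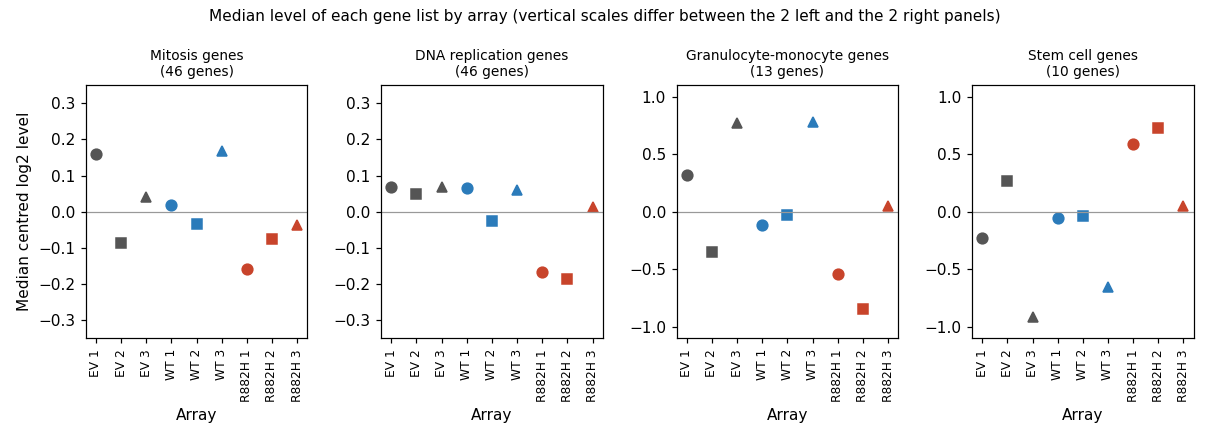
Median centred log2 level on each array of the mitosis genes, DNA replication genes, granulocyte-monocyte genes and stem cell genes detected on all 9 arrays; grey, blue and red are EV, WT and R882H, and the vertical scale differs between the left and right pairs of panels. R882H replicate 3 lies nearer to the EV and WT arrays than R882H replicates 1 and 2 in the 3 panels other than the first, where its -0.04 lies close to the -0.07 of replicate 2.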

How the data were processed

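RNA of 9 samples was hybridised to 1-colour (Cy3) Agilent mouse arrays after amplification from 3.67 ng, per the labels. The intensity that the authors deposited for each spot came from Agilent Feature Extraction 10.10.1.1, background-subtracted and detrended, per the file headers, with flags of 0 or 1 of other kinds for detection and outliers. Outlier spots (154 to 184 an array) and controls were left out, and no spot was saturated. Log2 values of replicate spots were averaged by probe, and the 75th percentile over the probes of the array was then taken away. Symbols came from RefSeq accessions, for 27235 of 55681 probes. The authors' deposited value table holds log2 values centred per probe. Of its 9 columns, 7 held the values of an array whose scanner output carries another sample's name. Groups here follow the sample named for each scanner output, and which assignment is right was not tested.

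Differences were tested with limma 3.58.1 (R 4.3.3) on all 9 arrays, with 6 residual and 2.82 prior degrees of freedom and Benjamini-Hochberg adjustment over 13120 genes at a threshold of 0.05. Tested on simulated data of these genes for R882H against EV, it called 30 of 100 genes changed by 1 log2 unit and 83 of 100 changed by 2. The members, lists, tests and alternatives were chosen with earlier results of these data known, so no set test or adjustment over the list was made. Values on all arrays are given for the 4 members of smallest p in each comparison and for the member of highest mean signal in each of 9 roles, and for others chosen after their values were seen. From the list of other mitosis genes, the 3 of smallest p are named. Alternatives were 21 settings of background, scaling, filter, probes, blocks and arrays left out. For normexp, the median pixel signal was used, with an offset of 50. Same-numbered arrays deviated together between WT and EV (r = 0.116, 0.222 and 0.325), so the numbers were taken to pair these groups, from the data alone. With the replicate block no call between them changed. The number of arrays limits the precision.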

Additional observations from a re-analysis of the deposited data

Results flagged for a closer look

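The probe of Cenpf, a large kinetochore protein that peaks in G2, was not among the genes tested, yet it was well above background on 2 of 3 R882H arrays and on 0 EV and 0 WT arrays. Its level was -4.39, -5.34 and -4.11 with EV, -5.04, -3.83 and -5.53 with WT and -3.09, -3.36 and -3.90 with R882H (log2 signal minus the 75th percentile of the array). R882H replicates 1 and 2 were above all EV and WT arrays, and R882H replicate 3 was below WT replicate 2. Over all probes, 64.8% and 60.0% were well above background on R882H replicates 1 and 2, against 53.4% to 57.6% on the EV arrays. On WT replicate 2 the share was also 64.8%. The dimmest of 5 classes of tested genes ran higher with R882H, by a median of 0.20 from EV and 0.13 from WT. How many other probes had the pattern of Cenpf was not counted.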

How the results depend on the processing

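No gene passed the adjusted threshold under any of the 21 settings, and the lowest adjusted p of a member over all of them was 0.316. Leaving out single replicates gave 0 to 4 members at an unadjusted p under 0.05 for R882H versus EV, 3 to 7 for R882H versus WT and 0 to 4 for WT versus EV. Other settings gave, for R882H versus EV, 1 member (normexp), 4 (replicate block) and 1 (deposited table, its columns as named), for R882H versus WT 2 (without number 3 in every group) and 0 (deposited table), and for WT versus EV 4 (normexp) and 0 (array median, slide block, only 2 groups fitted). The median for R882H versus EV was -0.27 with the array median as scale, where that of all genes was -0.18, -0.22 without number 3 in every group and -0.0053 in the deposited table, and for R882H versus WT 0.079 in that table. With the replicate block, all genes at an unadjusted p under 0.05 went from 1200 to 1805 for R882H versus EV, from 1063 to 1500 for R882H versus WT and from 779 to 1067 for WT versus EV, and no call changed. Between R882H and the other groups not every same-numbered pair passed the pairing limit (lowest r = 0.088 and 0.071).

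Directions of single genes turned under several settings, in the deposited table also for Cenpk and Bub1, among the members of smallest p. For R882H versus EV these were Spc25 at -0.10 and Hmmr at -0.072 (array median), Cenpk at 0.013 (slide block) and, in the deposited table, Aurka at 0.18, Bub3 at 0.068, Spc25 at -0.028, Cks2 at 0.043 and Mki67 at 0.0076. For R882H versus WT they were Spc25 at -0.047, Hmmr at -0.000663 and Cks2 at -0.021 (array median), Cks2 at -0.023 (slide block) and, in the table, Cenpk at 0.045, Bub1 at 0.0059, Aurka at 0.17 and Bub3 at 0.15. For WT versus EV, normexp gave Aurka 0.0098, Hmmr 0.000211 and Kif20a 0.0061, and the array median gave Spc25 -0.052. Quantile normalization gave Aurka 0.012, Birc5 0.047 and Hmmr 0.010, and cyclic loess Aurka 0.030, Birc5 0.050 and Hmmr 0.037. Without number 3 in every group, Spc25 was -0.0024 and Kif20a 0.12, and the table gave Cenpk -0.20, Aurka 0.013, Spc25 -0.034, Hmmr 0.036 and Kif20a 0.12. With single replicates left out, the ranges that crossed 0 were, for R882H versus EV, -0.014 to 0.14 (Spc25) and -0.30 to 0.00299 (Aurka), for R882H versus WT, -0.29 to 0.066 (Aurka), -0.020 to 0.17 (Cks2) and -0.29 to 0.11 (Bub3), and for WT versus EV, -0.16 to 0.054 (Birc5), -0.049 to 0.019 (Hmmr), -0.059 to 0.097 (Spc25), -0.18 to 0.075 (Aurka) and -0.27 to 0.15 (Kif20a). By scanner output, each group name in the deposited table covered arrays of more than 1 group. The cause of these changes was not tested.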

Other observations

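Differences were also listed by the presence of CHR letters in the promoter. With R882H against EV, the median of 29 tested members with the letters was -0.16 (19 lower) and of 12 without -0.11 (10 lower). Against WT it was -0.10 (21 lower) and -0.13 (8 lower), and for WT against EV 0.02 for both. No test was made of these medians.

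Spread within groups was uneven. The median SD of a member over 3 arrays was 0.22 with EV, 0.26 with WT and 0.17 with R882H, and the largest was 1.68, for Ncapg with WT. Of the 46 members detected on all arrays, WT replicate 2 was the lowest array for 11, among them Cenpm, Cenpn, Nuf2, Spc24, Top2a and Mki67, and the highest for 6, among them Incenp, Ttk and Ect2, so that the same array stood at both ends.

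Different probes of a gene did not always give the same sign. Between R882H and EV this held for Mad2l1 (0.01 on the probe used, -0.32 on both others), and between WT and EV for Cdca8 (0.05 and -0.01), Mad2l1 and Dlgap5. Between R882H and WT it held for Kif2c and Ube2c.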
